A study of Mus musculus with 20 samples.

Results

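The genes described here mark cholangiocytes, the epithelial cells of the bile ducts, or are raised when bile ducts expand in injured liver. They were given as a list of 32 gene symbols without keratins, and 30 of them were found in the array annotation among the 19505 genes measured. Pkd2 and Ggt1 were not analysed here. Total RNA from mouse liver was hybridised to 20 Clariom S Mouse arrays, 5 per group, and the series text states 5 mice in each group. The groups were wild type at 4 weeks (4w-WT), liver OGT knockout at 4 weeks (4w-KO), wild type at 8 weeks (8w-WT) and liver OGT knockout at 8 weeks (8w-KO), with the genotypes labelled OGTL WT and OGTL KO. OGT is the O-GlcNAc transferase, which attaches N-acetylglucosamine to proteins inside cells. The sources used here do not say which promoter drove the deletion, or give the strain and sex of the mice. The question was how these genes differ between genotypes at each age, and whether that difference changes with age.

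Bile ducts drain the liver, and their lining cells modify bile by moving chloride, bicarbonate and water. Each cholangiocyte carries a primary cilium, and several genes of inherited cystic or fibrotic bile duct disease act there. In chronic injury, cells with duct markers increase at the edge of the portal tract, a change called the ductular reaction. These cells can come from existing ducts or from hepatocytes that take on duct markers. In whole liver, more cells of a type and more RNA per cell cannot be told apart.

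All values are log2 signals as deposited, so a difference of 1 is a 2-fold difference, and group values are means ± SD with n = 5 arrays. Differences were tested with limma, with p-values adjusted by the Benjamini-Hochberg method over all 19505 genes, and an adjusted p below 0.05 counted as a call. A level that dim, unexpressed genes can reach was taken from 1412 olfactory and vomeronasal receptor genes as the 95th percentile of their group means. It lay between 5.01 and 5.20 in the 4 groups, and a group mean at or below it is called not above background. Where only the lower mean was not above background, a log2 difference of at least some value is given. That value is the higher group mean minus the background level of the lower group. It takes no account of sampling error, so it is not a confidence limit. By this level 12 of the 30 genes were not above background in 4w-WT, 12 in 4w-KO, 15 in 8w-WT and 6 in 8w-KO. Over all genes 42.28%, 41.91%, 45.36% and 41.64% were not above it in the same groups. The level was 5.20 in 8w-WT and 5.02 in 8w-KO. Cldn4 (5.09), Cldn7 (5.17) and St14 (5.04) in 8w-KO lay between these levels. Cldn6, Slc4a2, Sctr, Elf3, Ddr1 and Itgb4 were not above background in any group.

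Ogt itself was 9.37, 9.87, 9.83, 9.65 and 9.14 in 4w-WT and 7.37, 8.30, 8.13, 8.84 and 8.07 in 4w-KO. All 5 knockout arrays lay below all wild-type arrays (difference -1.43, limma adjusted p = 8.82e-05). At 8 weeks it was 9.84, 10.12, 9.92, 10.33 and 10.19 in 8w-WT and 9.86, 10.01, 9.65 and 9.55 in replicates 1, 2, 3 and 5 of 8w-KO, with replicate 4 between replicates 1 and 2, and the groups overlapped (-0.27, limma adjusted p = 0.529). The 8-week arrays are therefore described as labelled KO. Markers of skeletal muscle had a mean signal of 14.90 in replicate 4 of 4w-WT, 12.58 and 12.37 in replicates 4 and 5 of 4w-KO, and 4.50 to 6.27 in the other 17 arrays. Array numbers in the sample titles run in blocks by group, so array order and group cannot be told apart. Array medians over all features lay between 5.42 and 5.58.

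Duct genes rose in liver labelled KO at 8 weeks. Of the 30 genes 17 were higher than in wild type, 0 were lower and 13 were neither, where 4.94% of all genes were called higher and 1.65% lower by limma (21 higher and 1 lower at an unadjusted p below 0.05). The median difference of the 30 was 1.10, against -0.04 over all genes, and 16 of the 17 were at least 2-fold higher. In 12 of the 30 every array labelled KO lay above every wild-type array, which held for 4.13% of all genes, and the two-sided exact permutation p of each of these 12 was 0.00794, the smallest that 5 arrays against 5 can give. At 4 weeks Tspan8 and Wfdc2 were called higher by limma, 0 were called lower and 28 were neither (7 higher and 2 lower at an unadjusted p below 0.05). Over all genes 4.7% were called higher and 5.48% lower at that age, so the count of 2 in 30 lay near the share over all genes. The median difference at 4 weeks was 0.29, against 0.00 over all genes. With array medians set equal, 716 of all genes were higher and 1349 lower at 4 weeks, in place of 917 and 1068, and 817 higher and 727 lower at 8 weeks, in place of 963 and 321, with 17 of the duct genes higher.

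**Figure D1:**
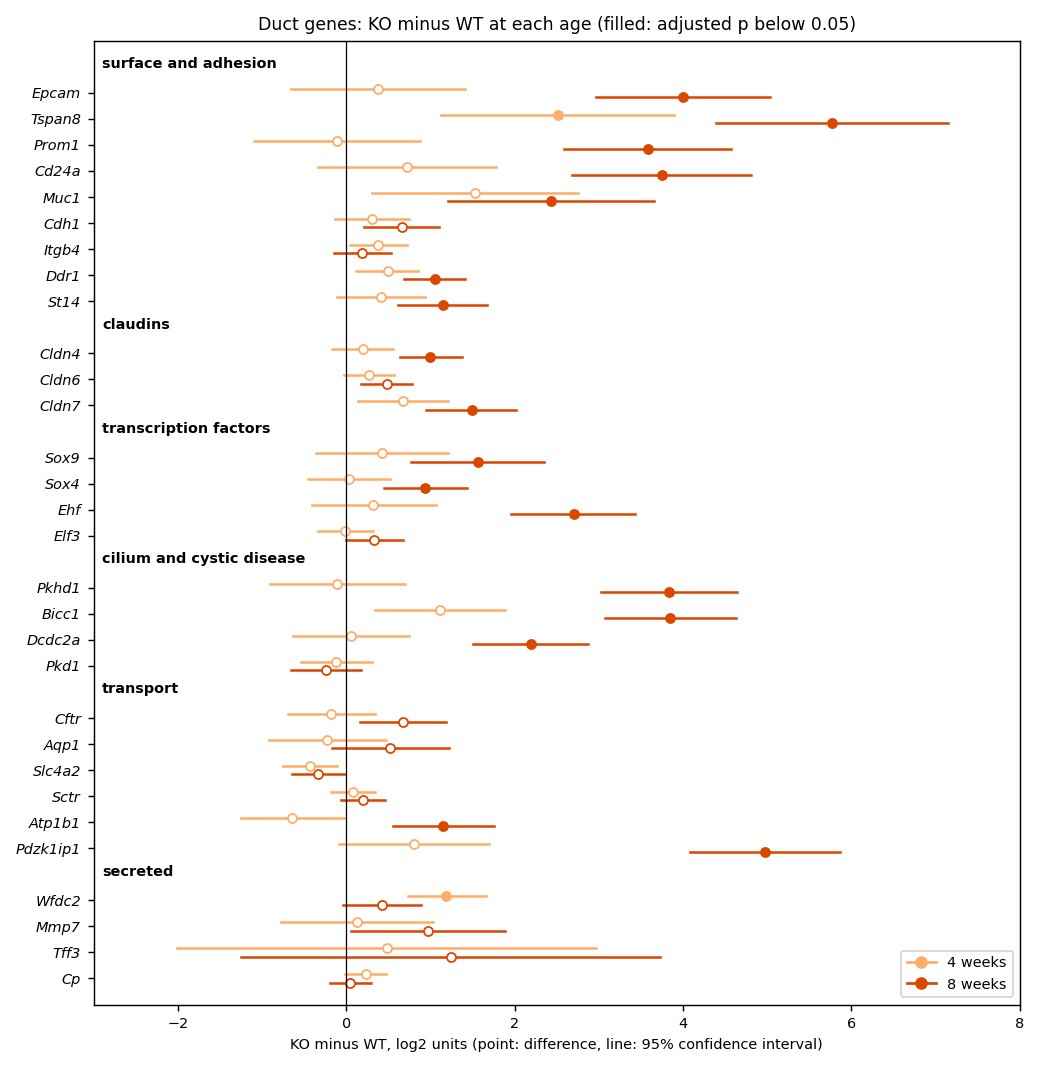
KO minus WT difference in log2 units for the 30 genes, grouped by role, at 4 weeks (light) and 8 weeks (dark). Points are differences of group means of 5 arrays each, and lines are 95% confidence intervals from a spread shared by the 4 groups. Filled points have an adjusted p below 0.05, which 2 genes reached at 4 weeks and 17 at 8 weeks.

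Promoter sequences were looked at for the 30 genes, of which 17 rose together. RefSeq windows of 300 bases, from 250 before to 50 after a gene start, were found for 21 of the 30 genes in GRCm38.p6 (30 windows). Motif letters searched on either strand were GTTAAT, a core of sites bound by HNF1 factors, CATTCC for TEAD factors, AACAAT for SOX factors and CGGAAG for ETS factors. GTTAAT was in 3 of the 30 windows and in 7.1% of all 32851 windows, CATTCC in 7 and 14.7%, AACAAT in 3 and 10.7%, and CGGAAG in 4 and 16.9%. In the 17 windows of the 12 risen genes that have one, GTTAAT was in 2, CATTCC in 3, AACAAT in 0 and CGGAAG in 2. Several windows of a gene overlap, so the windows are not independent. Dcdc2a and Pkhd1 were the risen genes with GTTAAT, which begins at -77 and -79 relative to their gene starts, and Tspan8, the gene that rose most, held none of the 4 motifs. Their windows follow, in lower case with the GTTAAT match in capitals.
Dcdc2a promoter, chr13:25055754-25056053 (plus strand): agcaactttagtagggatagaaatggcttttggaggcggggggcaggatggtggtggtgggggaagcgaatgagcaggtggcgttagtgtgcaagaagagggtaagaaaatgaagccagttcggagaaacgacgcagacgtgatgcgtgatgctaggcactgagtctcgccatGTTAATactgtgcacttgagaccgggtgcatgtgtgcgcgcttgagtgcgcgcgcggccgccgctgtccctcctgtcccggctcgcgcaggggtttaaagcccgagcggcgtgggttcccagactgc
Pkhd1 promoter, chr1:20618008-20618307 (minus strand): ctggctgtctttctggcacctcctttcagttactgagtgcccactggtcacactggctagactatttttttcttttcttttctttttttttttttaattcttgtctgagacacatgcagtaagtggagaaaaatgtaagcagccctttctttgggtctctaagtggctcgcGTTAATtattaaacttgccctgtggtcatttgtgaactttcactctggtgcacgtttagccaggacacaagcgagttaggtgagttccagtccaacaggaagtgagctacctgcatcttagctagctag
Tspan8 promoter, chr10:115817034-115817333 (plus strand): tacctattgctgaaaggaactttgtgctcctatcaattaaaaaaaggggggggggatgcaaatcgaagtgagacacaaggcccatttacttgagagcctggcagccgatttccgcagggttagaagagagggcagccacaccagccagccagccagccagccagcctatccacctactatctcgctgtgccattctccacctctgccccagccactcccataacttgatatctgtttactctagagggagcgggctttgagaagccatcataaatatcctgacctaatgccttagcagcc

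By role the counts rest on 3 to 9 genes each, and the shares over all genes given for each age apply to them too. Among genes of the cell surface and of adhesion, 7 of 9 were higher at 8 weeks and 1 of 9 at 4 weeks. Tspan8 (feature TC1000001333.mm.2, whose promoter window held none of the motifs), a tetraspanin of secretory and duct epithelium, was 4.45, 4.94, 5.01, 6.42 and 5.53 in replicates 1 to 5 of 8w-WT and 11.19, 11.59, 9.28, 10.08 and 13.06 in those of 8w-KO. The lowest array labelled KO stood above the highest wild-type array, and the difference was 5.77 (SE 0.67, limma adjusted p = 1.16e-05). At 4 weeks Tspan8 was 5.34, 5.40, 6.47, 7.48 and 4.28 in wild type and 8.32, 8.12, 8.45, 10.08 and 6.55 in knockout. Most knockout arrays were high, but replicate 5 of 4w-KO lay within the wild-type range (difference 2.51, SE 0.67, limma adjusted p = 0.0177). That call was lost without replicate 5 of 4w-WT (2.13, limma adjusted p = 0.0599) or without replicate 4 of 4w-KO (2.07, limma adjusted p = 0.0569), while without the 3 arrays with muscle transcripts the difference was 2.92 (limma adjusted p = 0.00754).

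Epcam (TC1700001312.mm.2), which encodes an adhesion molecule of duct and progenitor cells that is low in mature hepatocytes, was 4.22, 5.15, 4.35, 5.41 and 5.91 in 8w-WT and 8.83, 9.61, 7.50, 8.36 and 10.74 in 8w-KO. The groups did not overlap, and the difference was 4.00 (SE 0.50, limma adjusted p = 2.65e-05). Wild type was not above background, so the difference was at least 3.81. The 4-week values were 6.21, 5.56, 6.50, 7.28 and 5.21 in wild type and 6.27, 6.41, 7.31, 7.03 and 5.62 in knockout, which overlapped (0.38, limma adjusted p = 0.741).

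Prom1 (TC0500002320.mm.2), which encodes the progenitor marker CD133, was 4.56, 5.19, 4.16, 5.52 and 7.17 in 8w-WT and 8.94, 9.27, 8.34, 7.61 and 10.35 in 8w-KO. Replicate 5 of 8w-WT stood near the lowest array labelled KO without reaching it, and the difference was 3.58 (SE 0.48, limma adjusted p = 5.13e-05). At 4 weeks Prom1 was high in both genotypes, at 9.22, 8.15, 8.73, 8.71 and 7.77 in wild type and 8.42, 7.86, 8.36, 9.01 and 8.37 in knockout (-0.11, limma adjusted p = 0.928). Cd24a (TC1000000402.mm.2), which encodes a small glycosylated surface protein of immature epithelia, was 4.94, 4.44, 4.45, 4.89 and 6.29 in 8w-WT and 8.98, 9.30, 7.51, 7.14 and 10.81 in 8w-KO. All arrays labelled KO were above wild type (3.75, SE 0.51, limma adjusted p = 7.18e-05), a difference of at least 3.55 against the background level. Its 4-week values were 6.27, 5.59, 6.32, 6.22 and 6.34 in wild type and 6.37, 6.91, 6.95, 7.95 and 6.17 in knockout, with overlap (0.72, limma adjusted p = 0.459).

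Muc1, which encodes a transmembrane mucin of the duct lumen, rose from 6.59 ± 0.75 to 9.02 ± 1.48 at 8 weeks (2.43, limma adjusted p = 0.0125), and the groups overlapped through replicate 5 of 8w-WT at 7.85 and replicate 3 of 8w-KO at 7.47. At 4 weeks it was 6.68 ± 0.81 in wild type and 8.21 ± 1.01 in knockout (1.53, limma adjusted p = 0.110), a difference that passed without replicate 5 of 4w-KO (1.95, limma adjusted p = 0.0333) or replicate 5 of 8w-KO (limma adjusted p = 0.0409). Ddr1 (TC1700001976.mm.2), a collagen receptor kinase, was 3.86, 3.39, 3.66, 3.79 and 3.79 in 8w-WT and 4.61, 5.07, 4.63, 4.23 and 5.18 in 8w-KO. The groups did not overlap (1.05, SE 0.18, limma adjusted p = 6.45e-04), but neither was above background. Its 4-week values were 3.96, 3.48, 3.64, 3.27 and 3.87 in wild type and 4.45, 4.23, 3.84, 4.13 and 4.01 in knockout (0.49, limma adjusted p = 0.0867). St14, which encodes the epithelial protease matriptase, rose from 3.89 ± 0.41 to 5.04 ± 0.66 (1.15, limma adjusted p = 0.00629), with wild type not above background and KO at its edge. The Ddr1 and St14 calls could not be tested with the dimmest 25% of genes left out, since both genes fall among them. Cdh1, which encodes E-cadherin of hepatocytes as well as ducts, was 12.53 ± 0.37 in 8w-WT and 13.19 ± 0.51 in 8w-KO (0.66, limma adjusted p = 0.0703). It passed without replicate 2 of 8w-WT (0.76, limma adjusted p = 0.0472) or replicate 4 of 8w-KO (0.80, limma adjusted p = 0.0231). Itgb4, a laminin receptor subunit, differed by 0.19 (limma adjusted p = 0.571).

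**Figure D2:**
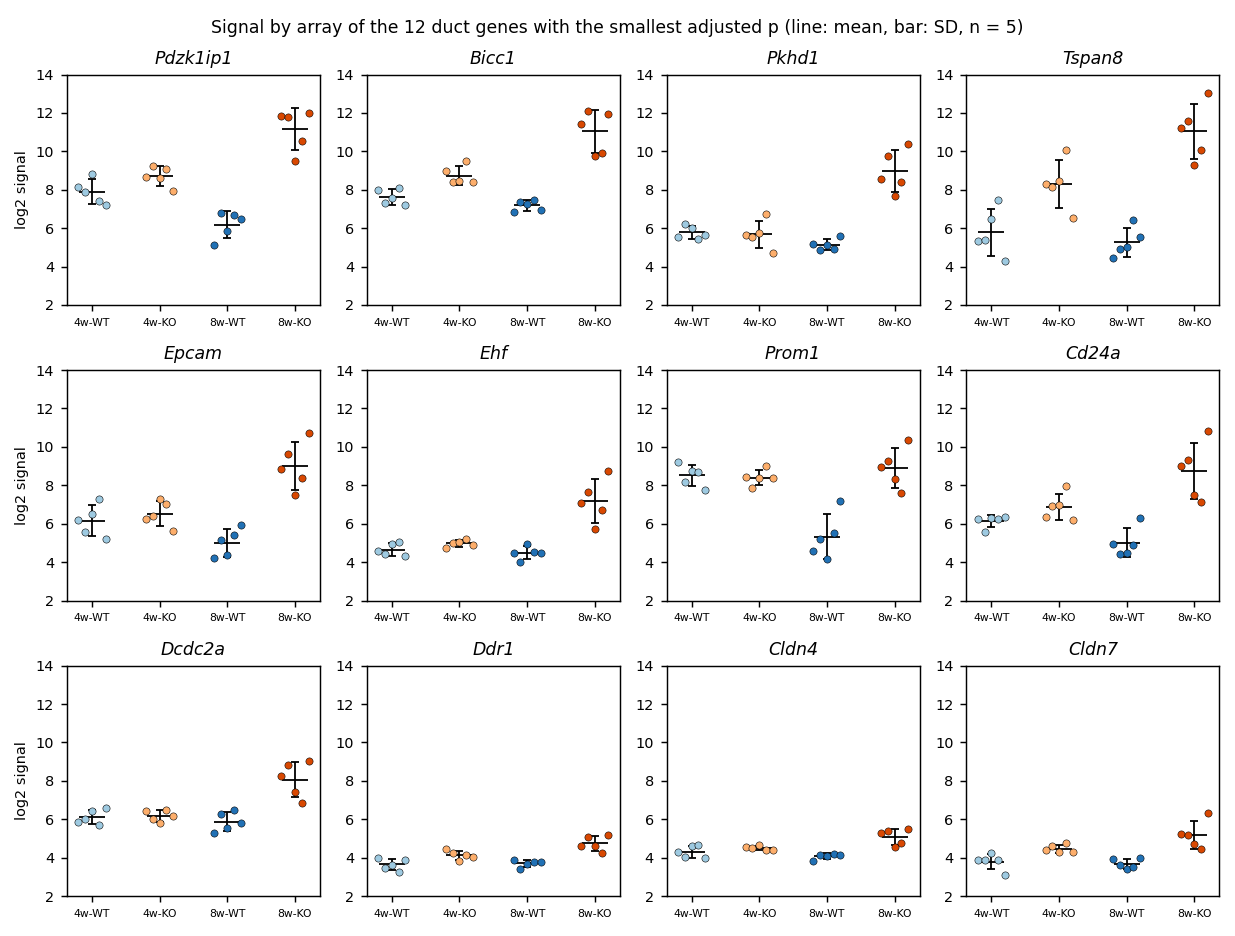
Log2 signal of each array for the 12 genes with the smallest adjusted p in any KO comparison, by group, with the mean (horizontal line) and SD (bar) of 5 arrays. In all 12 genes the 5 arrays of 8w-KO lie above the 5 arrays of 8w-WT.

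Claudins seal the tight junctions between epithelial cells, and 2 of the 3 on the list were higher at 8 weeks. Cldn4 (TC0500003384.mm.2) was 3.84, 4.13, 4.09, 4.21 and 4.16 in 8w-WT and 5.30, 5.38, 4.55, 4.74 and 5.48 in 8w-KO, with no overlap (1.0, SE 0.17, limma adjusted p = 8.26e-04). Cldn7 (TC1100000932.mm.2), whose protein binds EPCAM, was 3.91, 3.64, 3.40, 3.50 and 3.97 in 8w-WT and 5.21, 5.18, 4.72, 4.44 and 6.31 in 8w-KO, again without overlap (1.49, SE 0.26, limma adjusted p = 8.26e-04). Both were only just above background in 8w-KO and not above it in the other 3 groups, so no lower limit of the size could be set. At 4 weeks Cldn4 was 4.29, 4.02, 4.59, 4.65 and 3.99 in wild type and 4.56, 4.50, 4.68, 4.39 and 4.39 in knockout (0.20, limma adjusted p = 0.582). For Cldn7 the 4-week values were 3.87, 3.88, 4.22, 3.88 and 3.12 in wild type and 4.38, 4.62, 4.32, 4.75 and 4.27 in knockout. These groups did not overlap, but the difference did not pass the test (0.67, limma adjusted p = 0.109). The 4-week Cldn7 difference passed with only the 4-week arrays in the fit (limma adjusted p = 0.0435) or without replicate 5 of 8w-KO (limma adjusted p = 0.0273). Cldn6, a claudin of embryonic epithelia, differed by 0.48 at 8 weeks (limma adjusted p = 0.0525) and passed without any 1 of replicate 1 of 4w-KO, replicate 1 of 8w-WT, or replicates 3 and 4 of 8w-KO (0.0228 to 0.0435), while it was not above background in any group.

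Of 4 transcription factor genes 3 were higher at 8 weeks and 0 at 4 weeks. Ehf (TC0200004224.mm.2), an ETS family factor restricted to epithelia, was 4.47, 3.99, 4.94, 4.51 and 4.49 in 8w-WT and 7.07, 7.67, 5.70, 6.69 and 8.76 in 8w-KO. Every array labelled KO was higher (2.70, SE 0.35, limma adjusted p = 4.51e-05), and the difference was at least 1.98. At 4 weeks it was 4.56, 4.42, 4.95, 5.03 and 4.30 in wild type and 4.76, 4.97, 5.04, 5.22 and 4.88 in knockout (0.32, limma adjusted p = 0.678), and neither group was above background. Sox9, which directs bile duct formation and marks duct and periportal progenitor cells, rose from 6.71 ± 0.84 to 8.27 ± 0.88 at 8 weeks (1.56, limma adjusted p = 0.0130), with 6.97 in replicate 4 of 8w-KO inside the wild-type range. At 4 weeks Sox9 was 5.56 ± 0.42 in wild type and 5.99 ± 0.36 in knockout (0.43, limma adjusted p = 0.584). Sox4, which acts with Sox9 in duct formation, was 4.41 ± 0.23 in 8w-WT, where it was not above background, and 5.35 ± 0.66 in 8w-KO (0.94, at least 0.16, limma adjusted p = 0.0166). The Sox4 call was lost with only the 8-week arrays in the fit (limma adjusted p = 0.0546). Elf3, another epithelial ETS factor, differed by 0.33 at 8 weeks (limma adjusted p = 0.260).

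Of 4 genes of the cilium and of cystic disease 3 were higher at 8 weeks and 0 at 4 weeks. Pkhd1 (TC0100002028.mm.2), which encodes fibrocystin and is mutated in recessive polycystic kidney disease with bile duct malformation, was 5.15, 4.88, 5.13, 4.93 and 5.59 in 8w-WT and 8.55, 9.78, 7.70, 8.41 and 10.38 in 8w-KO. The highest wild-type array lay well under the lowest array labelled KO (3.83, SE 0.39, limma adjusted p = 2.72e-06, at least 3.77 against the background level). At 4 weeks it was 5.53, 6.24, 6.03, 5.44 and 5.67 in wild type and 5.66, 5.54, 5.75, 6.72 and 4.71 in knockout, with overlap (-0.11, limma adjusted p = 0.917). Bicc1 (TC1000002353.mm.2), which encodes an RNA-binding protein whose loss gives cysts, was 6.85, 7.36, 7.27, 7.49 and 6.96 in 8w-WT and 11.42, 12.12, 9.74, 9.93 and 11.96 in 8w-KO. No arrays overlapped (3.85, SE 0.37, limma adjusted p = 1.62e-06). Its 4-week values, 7.98, 7.32, 7.55, 8.10 and 7.19 in wild type and 8.99, 8.38, 8.44, 9.49 and 8.41 in knockout, did not overlap either, but the difference of 1.11 missed the threshold (limma adjusted p = 0.0626). It passed with only the 4-week arrays in the fit (limma adjusted p = 0.0141), and without replicate 2, 3, 4 or 5 of 8w-KO, arrays that enter this comparison through the shared spread alone (0.0306 to 0.0467).

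Dcdc2a (TC1300000285.mm.2), whose human counterpart is mutated in neonatal sclerosing cholangitis, was 5.30, 6.25, 5.55, 6.49 and 5.80 in 8w-WT and 8.27, 8.82, 7.40, 6.83 and 9.01 in 8w-KO. The groups were separate (2.19, SE 0.33, limma adjusted p = 2.01e-04). At 4 weeks it was 5.87, 5.99, 6.42, 5.72 and 6.59 in wild type and 6.43, 6.02, 5.78, 6.50 and 6.16 in knockout (0.06, limma adjusted p = 0.945). Pkd1, the polycystin gene of dominant polycystic disease, was 5.72 ± 0.34 in 8w-WT and 5.48 ± 0.41 in 8w-KO (-0.24, 95% confidence interval -0.66 to 0.18, limma adjusted p = 0.568).

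Of 6 genes placed with membrane transport 2 were higher at 8 weeks. Pdzk1ip1 (TC0400001217.mm.2), which encodes a small membrane protein that binds PDZ scaffolds and partners the SGLT2 glucose transporter, was 5.13, 6.79, 5.83, 6.67 and 6.50 in 8w-WT and 11.86, 11.81, 9.52, 10.56 and 12.02 in 8w-KO. It had the smallest adjusted p of the 30 genes at 8 weeks (4.97, SE 0.43, limma adjusted p = 4.52e-07), and the groups were far apart. At 4 weeks it was 8.14, 7.89, 8.83, 7.44 and 7.22 in wild type and 8.69, 9.26, 8.62, 9.06 and 7.92 in knockout, with overlap (0.81, limma adjusted p = 0.283). Atp1b1, a sodium pump subunit, rose from 12.73 ± 0.36 to 13.89 ± 0.70 at 8 weeks (1.15, limma adjusted p = 0.0176). This call was lost without replicate 3 of 8w-WT (limma adjusted p = 0.0534) or replicate 5 of 8w-KO (limma adjusted p = 0.0531). At 4 weeks Atp1b1 was 13.54 ± 0.49 in wild type and 12.90 ± 0.42 in knockout (-0.64, limma adjusted p = 0.195).

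The other 4 genes placed with transport, Cftr, Aqp1, Slc4a2 and Sctr, were not called at 8 weeks. Cftr, the chloride channel gene, was 5.50 ± 0.17 in 8w-WT and 6.17 ± 0.61 in 8w-KO (0.67, 95% confidence interval 0.16 to 1.19, limma adjusted p = 0.122), with 5.48 to 7.09 across the arrays labelled KO. Without replicate 3 of 8w-KO, Cftr passed (0.85, limma adjusted p = 0.0370). Aqp1, the water channel gene, which endothelium also expresses, differed by 0.52 (95% confidence interval -0.17 to 1.22, limma adjusted p = 0.422). Slc4a2, the anion exchanger that secretes bicarbonate, differed by -0.34 (limma adjusted p = 0.224) and Sctr, the receptor for secretin, by 0.20 (limma adjusted p = 0.410), and neither was above background in any group.

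Among 4 genes of secreted proteins 0 were called at 8 weeks and 1 at 4 weeks. Wfdc2, an epithelial protease inhibitor gene, was the other gene called at 4 weeks, at 5.32 to 5.66 in wild type and 6.40 to 7.26 in knockout (1.19, SE 0.22, limma adjusted p = 0.00125). The groups did not overlap, and the difference was 1.13 without the 3 arrays with muscle transcripts (limma adjusted p = 0.00951). At 8 weeks Wfdc2 was 5.57 ± 0.39 in wild type and 6.0 ± 0.50 in KO (0.43, limma adjusted p = 0.306), and the change of its KO effect between the ages did not pass the test (-0.77, limma adjusted p = 0.222). Mmp7, a metalloproteinase of injured ducts, was 4.00 to 4.94 in 4 arrays labelled KO and 7.80 in replicate 5 (0.97, limma adjusted p = 0.221). Tff3, a trefoil peptide of mucous epithelia, ran from 5.59 to 13.50 within 8w-KO and from 5.91 to 9.20 within 8w-WT (1.24, limma adjusted p = 0.634). Cp, the ceruloplasmin gene, made in quantity by hepatocytes, was 17.96 ± 0.04 in 8w-WT and 18.01 ± 0.21 in 8w-KO (0.05, limma adjusted p = 0.886), a level over the log2 ceiling of 16 of a scanner.

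The effect of the KO label was larger at 8 than at 4 weeks for 9 of the 30 genes and smaller for 0, by the limma test of the difference between the effects (16 larger and 1 smaller at an unadjusted p below 0.05). Over all genes 2.05% were called larger and 1% smaller in that test. The change was 4.16 for Pdzk1ip1 (limma adjusted p = 8.55e-04), and it passed for Pkhd1 (3.93, limma adjusted p = 5.12e-04), Prom1 (3.69, limma adjusted p = 0.00417) and Epcam (3.62, limma adjusted p = 0.00656). Cd24a (3.02), Bicc1 (2.73), Ehf (2.38), Dcdc2a (2.13) and Atp1b1 (1.79) were the others. Epcam, Pkhd1, Cd24a and Ehf were not above background in 8w-WT, and Ehf was not above it in either genotype at 4 weeks. The sizes of their changes are therefore not fixed and the 9 are not ranked. Tspan8, already higher at 4 weeks, missed the threshold (3.26, limma adjusted p = 0.0649) but passed without replicate 5 of 4w-WT (3.64), replicate 4 of 4w-KO (3.70) or replicate 3 of 8w-KO (3.70), with adjusted p from 0.0249 to 0.0407 by limma. Also not called were Sox9 (1.13, limma adjusted p = 0.306), Sox4 and Cldn4, of which the latter pair passed without replicate 3 of 8w-KO (limma adjusted p = 0.0410 and 0.0229) and Cldn4 also without replicate 4 (limma adjusted p = 0.0486), and Muc1 (0.90, limma adjusted p = 0.664). All 9 genes were called with any of the 20 arrays left out and in each of the 10 other alternative analyses run.

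Changes with age ran differently in the genotypes. In wild type 2 of the 30 genes were lower at 8 than at 4 weeks and 0 higher by limma (5 lower and 1 higher at an unadjusted p below 0.05), where 5.23% of all genes were lower and 3.71% higher. Prom1 fell by 3.20 (limma adjusted p = 1.02e-04) and Pdzk1ip1 fell by 1.72 (limma adjusted p = 0.0124), and neither overlapped between the ages. Epcam (-1.14, limma adjusted p = 0.172), Cd24a (-1.15, limma adjusted p = 0.187) and Sox9 (1.15, limma adjusted p = 0.0629) did not pass the test. In KO 15 genes were higher at 8 weeks and 1 was lower, where 7.85% of all genes were higher and 6.78% lower. The 15 became 11 with only the KO arrays in the fit, which lost Cd24a, Cldn4, Ddr1 and Atp1b1, and 11 without replicate 5 of 8w-KO, which lost Cldn4, Cftr, Ddr1 and Atp1b1. Pkhd1 (3.29, limma adjusted p = 6.16e-06), Ehf (2.20, at least 2.14, limma adjusted p = 1.73e-04), Bicc1 (2.29, limma adjusted p = 2.13e-04) and Sox9 (2.28, limma adjusted p = 2.62e-04) rose with the smallest adjusted p. Prom1 was 8.40 ± 0.41 at 4 weeks and 8.90 ± 1.03 at 8 weeks in KO, a difference of 0.50 that did not pass the test (limma adjusted p = 0.571), while it fell in wild type over the same ages. Pkhd1 was 5.78 ± 0.34 and 5.14 ± 0.28 in wild type at the 2 ages and Ehf was 4.65 ± 0.32 and 4.48 ± 0.34, and neither was called there. In wild type Ehf was not above background at either age, nor was Pkhd1 at 8 weeks. Wfdc2, the lower gene in KO (-0.69, limma adjusted p = 0.0415), was not called under 11 alternatives. The age comparison in KO uses the same 8w-KO arrays as the comparison of genotypes, so the counts are not independent.

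**Figure D3:**
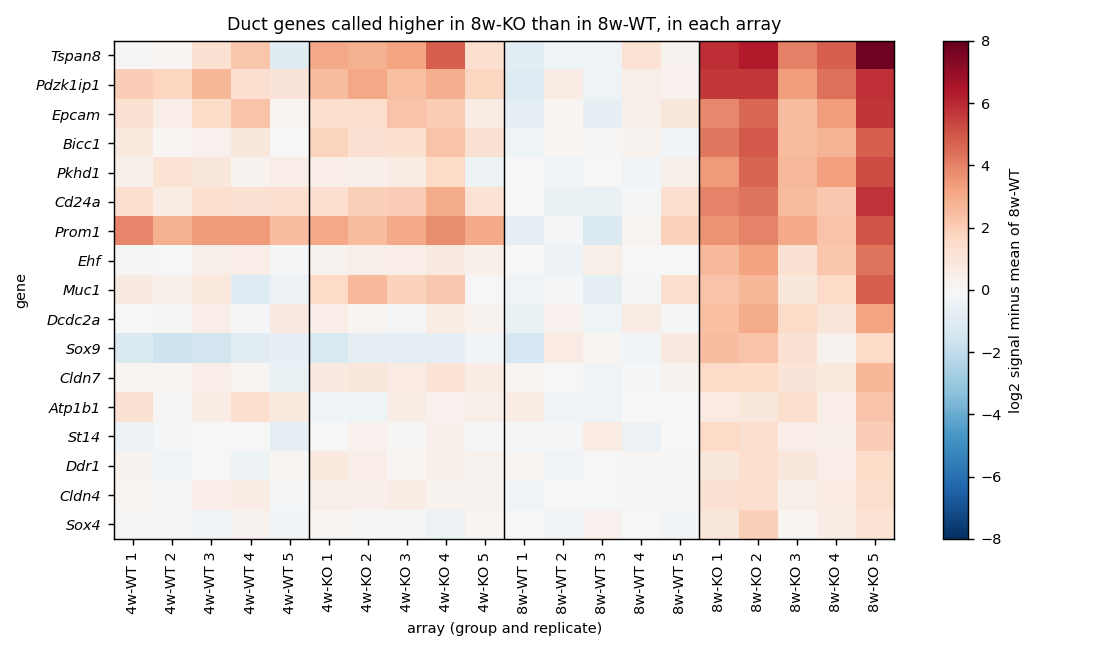
Log2 signal of the 17 genes higher in 8w-KO than in 8w-WT, in each of the 20 arrays, as the difference from the mean of 8w-WT. Rows run from the largest to the smallest difference at 8 weeks, and within 8w-KO replicate 5 has the darkest column and replicates 3 and 4 the palest.

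The 17 risen genes were high and low in the same arrays labelled KO at 8 weeks. Their mean signal was 8.38, 8.76, 7.36, 7.46 and 9.41 in replicates 1 to 5 of 8w-KO, and 5.29, 5.56, 5.43, 5.73 and 6.02 in 8w-WT. Replicate 5 was the highest of its group for 14 of the 17 genes, and replicates 3 and 4 held the lowest value for 9 and 8 of them. These means describe genes chosen by the same comparison, and every array labelled KO lay above every wild-type array. Without replicate 5 of 8w-KO, 16 of the 17 remained called, with Atp1b1 lost. Krt7 and Krt19, the duct keratins, which are not on the list, had the same high array, with Krt7 at 7.75, 8.45, 6.53, 7.14 and 10.26 and Krt19 at 6.87, 7.13, 6.05, 6.37 and 8.76 in 8w-KO. Wild type at 8 weeks held 5.25 to 6.37 for Krt7 and 3.84 to 5.63 for Krt19, and the differences were 2.33 (limma adjusted p = 0.00182) and 1.95 (at least 1.84, limma adjusted p = 0.00570). At 4 weeks neither Krt7 (0.35, limma adjusted p = 0.726) nor Krt19 (-0.25, limma adjusted p = 0.806) was called. The change of the KO effect with age passed narrowly for Krt19 (2.21, limma adjusted p = 0.0481) and not for Krt7 (1.98, limma adjusted p = 0.0901).

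The duct label was set against 6 defining markers, Krt7, Krt19, Epcam, Sox9, Cftr and Tspan8. All were above background in 8w-KO and 4 in 8w-WT, but the last 4 belong to the list itself, so only the keratins, whose values are given with the arrays labelled KO, are separate from it. Counts of calls in the other marker lists stand beside 4.94% of all genes higher and 1.65% lower at 8 weeks. At 4 weeks these shares were 4.7% and 5.48%. In lists of 5 to 8 genes a count of 0 or 1 says little beside such shares. Hepatocyte markers gave 0 limma calls among 8 at 8 weeks and 0 at an unadjusted p below 0.05. Their mean signal was 18.04 to 18.28 in 8w-WT and 17.95 to 18.14 in 8w-KO, and the groups overlapped. These means lay over the log2 ceiling of 16 of a scanner, so the lack of calls does not show that hepatocyte RNA was unchanged. Hnf4a, which lay below that ceiling, was 13.81 in 8w-WT and 13.5 in 8w-KO (limma adjusted p = 0.537). Of the markers of stellate cells and fibroblasts 5 of 8 were higher at 8 weeks, with a mean signal of 7.79 to 8.60 in 8w-WT and 9.46 to 10.69 in 8w-KO. Of the macrophage markers 5 of 7 were higher and 0 lower by limma (5 and 1 at an unadjusted p below 0.05), with means of 7.50 to 7.74 against 7.85 to 8.51. The macrophage marker Clec4f went the other way, at 7.89 to 8.76 in 8w-WT and 6.98 to 8.34 in 8w-KO. Replicate 5 of 8w-KO, the highest in duct genes, was at 10.14 for the stellate list and 8.14 for the macrophage list, not the highest array for either. Replicates 3 and 4, the lowest in duct genes, were also the lowest for the stellate list, at 9.46 and 9.95, while for the macrophage list replicate 3 was lowest at 7.85 and replicate 4 highest at 8.51. Of 6 endothelial markers 1 was higher at 8 weeks, with a mean signal of 8.15 to 9.08 in 8w-WT and 8.81 to 9.43 in 8w-KO, and 1 was lower at 4 weeks. Among mesothelial markers Gpm6a was called (2.44, limma adjusted p = 0.00100) and 4 of 6 were not above background. The mean signal of the mesothelial list was 4.62 to 4.84 in 8w-WT and 4.92 to 5.67 in 8w-KO. Intestinal epithelial and pancreatic acinar markers gave 0 limma calls at 8 weeks among 6 and 5 measured, with 0 and 1 at an unadjusted p below 0.05. Within 8w-KO the mean of the intestinal list was highest in replicate 5, at 6.67 against 5.92 to 6.21 in the other arrays. At 4 weeks that mean was 6.96 and 7.08 in replicates 3 and 4 of 4w-WT and 6.85 in replicate 3 of 4w-KO. The other 4-week arrays held 5.62 to 6.06. At 4 weeks 2 of the 8 hepatocyte markers were lower in knockout and 3 of the 7 macrophage markers were higher, with mean macrophage signals of 7.98 to 8.30 in 4w-WT and 8.56 to 8.83 in 4w-KO, while none of the 8 stellate and fibroblast markers was called by limma (1 higher and 1 lower at an unadjusted p below 0.05). The part of other cell types in the duct gene signal was not tested.

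**Figure D4:**
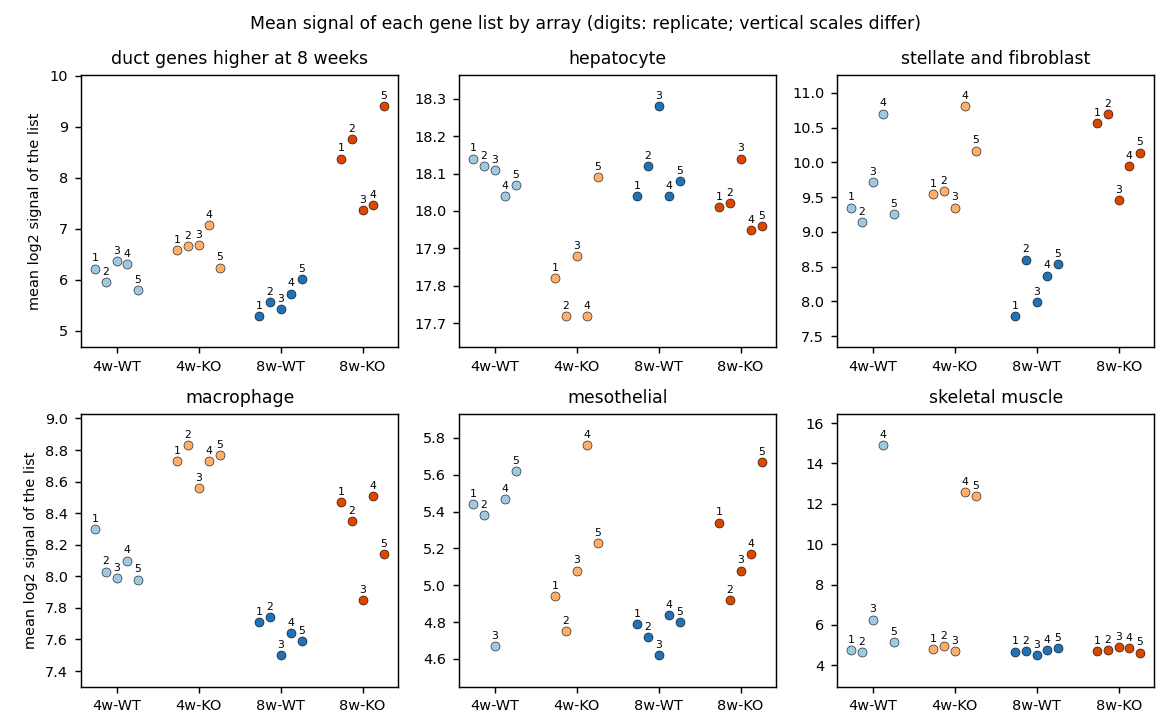
Mean log2 signal over each gene list in every array, with the replicate number beside each point and a separate vertical scale for each panel. The 17 duct genes and the stellate and fibroblast markers are higher in all 5 arrays of 8w-KO than in all 5 of 8w-WT. The same holds for the macrophage and mesothelial markers. Hepatocyte markers overlap, and 3 arrays at 4 weeks have high muscle markers.

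Other genes of duct biology were taken from 5 further lists, whose counts stand beside 4.7% of all genes higher and 5.48% lower at 4 weeks, and 4.94% higher and 1.65% lower at 8 weeks. Of 16 genes of duct transcription factors and the YAP pathway, 0 were called by limma at 4 weeks (4 higher and 1 lower at an unadjusted p below 0.05), and at 8 weeks 5 were higher and 0 lower (7 and 2 at an unadjusted p below 0.05). Tead1, the DNA-binding partner of YAP, rose from 7.63 to 8.89 (1.27, limma adjusted p = 0.00116), and the YAP target genes Ankrd1 (1.81, limma adjusted p = 0.00220) and Ccn2 (1.85, limma adjusted p = 0.00259) rose as well. The other 11 of the list were not called. Among these, and named after their values were seen, were the YAP pathway genes Yap1 (-0.27), Lats2 (-0.17), Amotl2 (0.01) and Ccn1 (0.49). Wwtr1, also not called, was 7.05 in 8w-WT and 7.65 in 8w-KO. Among 16 other ductular reaction and progenitor genes 4 were higher at 4 weeks and 6 at 8 weeks, with 0 lower by limma at either age (1 and 0 lower at an unadjusted p below 0.05). Tnfrsf12a, the receptor for the cytokine TWEAK, rose by 2.48 at 4 weeks (limma adjusted p = 2.10e-05), and its KO effect was smaller at 8 weeks (-1.65, limma adjusted p = 0.0432). At 8 weeks Cd44 (1.83, limma adjusted p = 1.16e-05) and Anxa2 (2.73, limma adjusted p = 2.79e-05) had the smallest adjusted p, followed by Ncam1 (2.01, at least 0.62, limma adjusted p = 6.09e-04). Cd44 and Anxa2 are also expressed by fibroblasts and leukocytes.

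Of 15 further genes of biliary transport and secretion 4 were higher and 0 lower by limma at 8 weeks (7 and 1 at an unadjusted p below 0.05). Slc5a1, a sodium-glucose transporter of the apical duct membrane, was 3.80 in 8w-WT, which is not above background, and 7.0 in 8w-KO (3.20, at least 1.80, limma adjusted p = 8.16e-06). Car2, a carbonic anhydrase, rose by 1.75 (limma adjusted p = 1.11e-04) and Ano1, a calcium-activated chloride channel, by 2.76 (limma adjusted p = 1.56e-04). At 4 weeks Sstr2, a somatostatin receptor gene, was the 1 higher (1.68, at least 0.76, limma adjusted p = 6.80e-05). Of 18 other junction and polarity genes 2 were higher and 1 lower at 8 weeks, with Spint1, the inhibitor of the protease made from St14, at 1.99 (limma adjusted p = 0.00134). The other 2 were Tjp1, a junction scaffold (0.60, limma adjusted p = 0.00371), and Esrp2, an epithelial splicing factor (-0.70, limma adjusted p = 0.0487). At 4 weeks 2 were higher, Prss8 (1.45, limma adjusted p = 0.0131) and Lsr (0.81, limma adjusted p = 0.0120). Of 12 cilium genes 1 was called at each age, Kif3a, a motor subunit of ciliary transport, at 4 weeks (1.72, limma adjusted p = 9.92e-05) and Glis2 at 8 weeks (0.68, at least 0.41, limma adjusted p = 0.0364). That is 8.33% of the list at each age, near the share over all genes. At 8 weeks the median difference of the cilium genes was 0.17, against -0.04 over all genes.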

How the data were processed

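The deposited values are log2 signals that the authors made from Clariom S Mouse arrays with RMA in Affymetrix Expression Console, per the submitters' processing notes, with no version stated. The values spanned 2.32 to 19.85, and each array held 254 to 288 features over the ceiling of 16 that a scanner can give. Of 22206 features 19572 had 1 gene symbol in the platform annotation, and the feature with the highest mean was kept for each symbol, which left 19505 genes. Group means were fitted over all 20 arrays with limma 3.58.1 in R 4.3.3 (16 residual degrees of freedom). Each gene had 1 spread shared by the 4 groups, but the groups were not equally variable. Of the 17 genes higher at 8 weeks, all but Prom1 had a larger SD in 8w-KO than in 8w-WT (Bicc1 1.13 against 0.27). Standard errors can thus be too small at 8 weeks and too large at 4 weeks. With only the arrays of the groups compared, 16 genes were called at 8 weeks and 4 at 4 weeks. The number of arrays limits the precision. The script was tested on simulated data.

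The genes and lists were chosen with earlier results of these data known. Every gene of the main list is given, with values by array for the 12 called genes with the smallest adjusted p. From each other list up to 3 genes with the smallest adjusted p are named. Genes whose groups of arrays do not overlap are counted beside the tests. The planned comparison of claudin proteins was not made. Alternatives covered normalization, dim genes, arrays in the fit, a replicate block, variance moderation, array weights, feature choice, the genes adjusted over, a ceiling of 16, muscle transcripts and each array left out.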

Additional observations from a re-analysis of the deposited data

Results flagged for a closer look

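In 9 of the 30 genes the KO effect differed between 8 and 4 weeks by the limma test of that difference. The sizes were 3.62 for Epcam, 2.73 for Bicc1, 3.93 for Pkhd1, 3.69 for Prom1, 3.02 for Cd24a, 2.38 for Ehf, 4.16 for Pdzk1ip1, 1.79 for Atp1b1 and 2.13 for Dcdc2a, all larger at 8 weeks. Those of Epcam, Pkhd1, Cd24a and Ehf are not fixed, since these genes were not above background in 8w-WT.

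Single arrays stood apart from the other 4 of their group in 6 of 120 gene and group combinations, where chance gives about 1 in 20. Mmp7 was 7.80 in replicate 5 of 8w-KO, against 4.00 to 4.94 in the others of that group. Cd24a was 6.29 in replicate 5 of 8w-WT, against 4.44 to 4.94, and 5.59 in replicate 2 of 4w-WT, against 6.22 to 6.34. Aqp1 was 8.40 in replicate 1 of 8w-WT, against 9.81 to 10.13, Pkd1 was 4.78 in replicate 4 of 8w-KO, against 5.56 to 5.82, and Cp was 18.43 in replicate 1 of 4w-KO, against 18.18 to 18.22.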

How the results depend on the processing

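The count of 17 genes higher at 8 weeks stayed between 15 and 19 over all alternatives run, and the 9 genes of the age test were called in each. At 4 weeks the count of 2 higher was 4 with only the arrays of the groups compared, and 1 to 5 with an array left out (1 without replicate 5 of 4w-WT or replicate 4 of 4w-KO, which lost Tspan8, and 5 without replicate 5 of 8w-KO, which added Bicc1, Cldn7 and Muc1). The count lower at 4 weeks was 1 with array medians set equal (Slc4a2) and 0 to 1 with an array left out. For Ogt the genotype difference was less negative in the older mice, a shift of 1.16 that passed the limma test (adjusted p = 0.0307). This shift ran from 0.97 to 1.34 with an array left out and lost its call in 7 of these cases. From 4 to 8 weeks in wild type, 1 gene (Sox9) was higher with quantile normalization repeated or with array weights, 0 to 1 were higher with an array left out, and 4 were lower with only the arrays compared. In KO the count lower with age was 2 with quantile normalization repeated, 0 with only the arrays compared, with the replicate block, with values over 16 set to 16 or without the arrays with muscle transcripts, and 0 to 1 with an array left out. The cause was not tested. Same-numbered replicates correlated from -0.176 to 0.479 in their deviations from group means, so the numbers were not taken to pair the animals. With the replicate block the counts were 2 higher at 4 weeks, 17 higher at 8 weeks and 9 in the age test, as without it. Signal over background limits Cldn4, Cldn7, Ddr1, St14 and Sox4, and with the 99th percentile as background 19 of the 30 were not above it in 8w-WT and 12 in 8w-KO.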
